A study of Caenorhabditis elegans with 2 samples.

Results

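Candidate NHR-232 binding regions at the nuclear genes for transfer RNAs (tRNAs) of Caenorhabditis elegans were described from a chromatin immunoprecipitation and sequencing (ChIP-seq) experiment. A region was included when its summit, the position of highest signal, lay within 200 bp of a gene that the annotation classes as tRNA. Of 21094 candidate regions in the list made from both replicates together, 21075 lay on nuclear chromosomes and 445 met this rule. They were set against the 612 nuclear tRNA genes of the annotation, of which 394 had such a region and 218 had none.

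The samples were whole hermaphrodite worms of strain OP489, genotype unc-119(tm4063) III and wgIs489, collected as late embryos 5 hours after bleach synchronisation. The integrated transgene wgIs489 encodes NHR-232, a nuclear hormone receptor, with GFP and FLAG fused to its C-terminus, so the tagged copy rather than the native protein was precipitated. Chromatin was sonicated, and per the labels an anti-GFP antibody was used, although the entry for the antibody names the target protein. Both samples, biological replicates 1 and 2, belong to 1 group, and both carry the unc-119 allele and the transgene. The labels state no promoter for the transgene, and with whole embryos a region cannot be assigned to a cell type. Control samples were not analysed here, so no comparison with untagged worms or with input DNA could be made from read counts.

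tRNA genes are transcribed by RNA polymerase III. Their promoters lie inside the transcribed sequence as an A box near the 5′ end and a B box in the part that forms the T arm, and the factor TFIIIC binds both boxes and places TFIIIB just upstream of the start. Transcription ends in a run of T residues behind the gene. Worm tRNA genes lie scattered over all chromosomes, often as many copies of identical sequence and often inside introns of protein-coding genes, and short tandem groups are common.

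The sequences of 5 tRNA genes are shown because their regions were among the 15 strongest and the genes differ in amino acid type. They are not in every case the strongest of their type. All are from the WBcel235 assembly, which ce11 names, 5′ to 3′ on the strand of the gene, and capitals mark exact matches to the letters TGGCNNAGT (A box) or GTTCGANNC (B box). C04A11.t1 (leucine, chrX:13665555-13665673, plus strand) and F57F5.t1 (isoleucine, chrV:12002176-12002260, plus strand) are each annotated with an intron. F15G9.t1 (alanine, chrX:9743589-9743660, plus strand), F28H6.t1 (arginine, chrX:14115691-14115763, plus strand) and C33G3.t2 (lysine, chrX:14063946-14064018, minus strand) have none.
C04A11.t1: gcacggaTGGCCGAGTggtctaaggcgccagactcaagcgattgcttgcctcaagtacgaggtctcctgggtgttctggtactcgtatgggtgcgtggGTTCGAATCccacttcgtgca
F15G9.t1: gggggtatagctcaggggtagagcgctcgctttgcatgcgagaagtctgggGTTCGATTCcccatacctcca
F28H6.t1: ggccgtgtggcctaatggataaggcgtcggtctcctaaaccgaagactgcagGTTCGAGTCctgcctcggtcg
F57F5.t1: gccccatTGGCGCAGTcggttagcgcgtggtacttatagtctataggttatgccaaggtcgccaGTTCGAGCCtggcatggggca
C33G3.t2: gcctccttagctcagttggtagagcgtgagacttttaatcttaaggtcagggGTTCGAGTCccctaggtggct
All 5 hold a B box match, and C04A11.t1 and F57F5.t1 also hold an A box match. Counting the gene itself, their sequences occur as 1, 8, 2, 1 and 14 nuclear tRNA genes in the order printed.

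The 445 regions were stronger than the other nuclear candidates and far more often in the authors' thresholded list. That list is named for the irreproducible discovery rate (IDR) procedure, which compares the ranks of regions in the replicates. As deposited it holds exactly the 519 regions of highest signal in the pooled list, so an IDR region is a region above a limit of pooled signal. Of the 445 regions, 194 were in it (43.6%, 95% Wilson interval 39.1 to 48.2), against 2.38% of all nuclear candidate regions. The same share was read from each replicate alone, taking as many of its strongest regions as the IDR list holds. In the replicate 1 list 427 regions lay at tRNA genes and 42.6% of them were among its strongest, against 2.46% of all its nuclear regions. In the replicate 2 list the figures were 446 regions and 40.8%, against 2.19%. The intervals here and below cover counting error only, and they treat regions and genes as separate units although many share sequence or lie side by side. The labels do not say whether the replicates came from separate cultures, and with 1 group no test between conditions could be made.

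The deposited signal of a region is the authors' own value from their peak caller. Over the 445 regions its median was 72.2 (quartiles 43.5 and 142), against 32.1 (quartiles 27.4 and 39.97) over nuclear candidate regions at no tRNA gene. Since the IDR list is a limit of signal, the split in the next values is fixed by it and is a description. The 194 IDR regions ran from 89.7 to 610 with a median of 158, while the 251 others ran from 24.2 to 89.3 with a median of 45.8. Of those 251, 59 overlapped an IDR region. A single region lay within reach of 2 tRNA genes in 37 cases, and 88 genes had 2 regions. Only 1 of the 445 regions also had an snRNA gene within 200 bp of its summit, and 0 had an snoRNA gene.

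At the level of genes, 394 of 612 tRNA genes had a candidate region (64.4%, interval 60.5 to 68.1) and 202 had an IDR region (33.0%, interval 29.4 to 36.8). Among the annotated 5′ ends of 19973 protein-coding genes, the shares were 11.7% with a candidate region and 0.476% with an IDR region. The strongest regions of replicate 1 alone marked 30.9% of the tRNA genes and those of replicate 2 alone 30.6%. Genes for small nucleolar RNAs, which guide modification of other RNAs, had an IDR region in 15.03% of 346 cases (interval 11.6 to 19.2). Genes for spliceosomal and related small nuclear RNAs had one in 7.8% of 129 cases, and microRNA genes in 1.5% of 261. Intervals of the tRNA genes and of each of these kinds did not overlap.

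tRNA pseudogenes, which the RefSeq annotation lists apart from the 612 genes, offered a set of tRNA-like sequences for comparison, chosen after the data were seen. Of 209 pseudogenes, 24 had a candidate region (11.5%, interval 7.84 to 16.5) and 3 had an IDR region (1.4%, interval 0.5 to 4.1). In the window around the gene, 30 of the 612 tRNA genes and 45 of the 209 pseudogenes had under 70% unique 50-mers (stretches of 50 bp found once in the genome), and a missing region there cannot be told apart from reads that could not be placed. Among the other 164 pseudogenes, 23 had a candidate region and 3 an IDR region (1.8%, interval 0.6 to 5.2). The letters GTTCGANNC of the B box were present in 72.2% of the tRNA genes and 69.4% of the pseudogenes. Exact matches to the letters TGGCNNAGT of the A box were present in 9.97% of the tRNA genes and 50.2% of the pseudogenes. With 1 mismatch allowed, 76.8% of the tRNA genes held the A box letters. The pseudogenes were not counted that way, so the exact shares do not show which set holds an A box more often. A run of TTTT within 20 bp downstream was found at 98.4% of the tRNA genes and 91.9% of the pseudogenes. The 3 pseudogenes with an IDR region were D1046.t1, C52E12.t1 and T08B2.t1, with signals of 399, 228 and 195. D1046.t1 and T08B2.t1 have an snoRNA gene within 200 bp, and C52E12.t1 has neither an snoRNA gene nor a tRNA gene there.

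**Figure D1:**
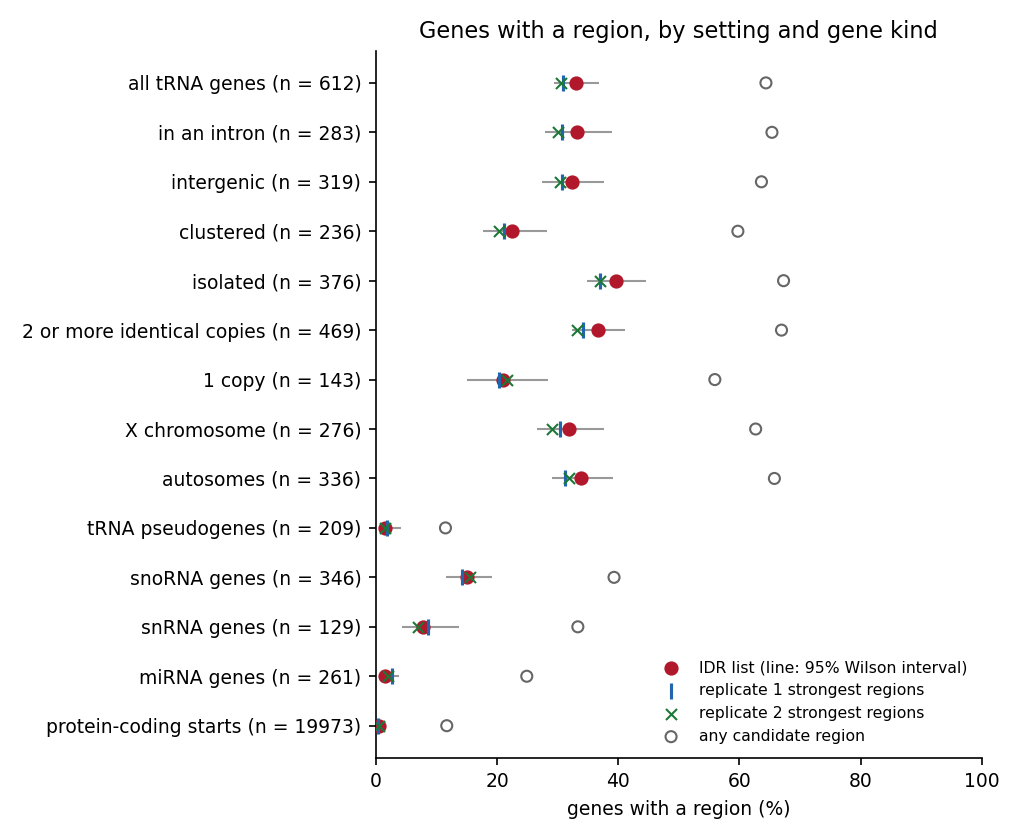
Share of genes with a region, for tRNA genes by setting and for other kinds of gene. The x axis is the percentage of genes and the number of genes is in each row label. Filled circles are IDR regions with 95% Wilson intervals, bars and crosses the strongest regions of replicate 1 and replicate 2, and open circles any candidate region. Intronic and intergenic tRNA genes sit together near 33%, clustered and single-copy tRNA genes sit near 22%, and tRNA pseudogenes sit with microRNA genes near 1.5%.

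The strongest region of all lay at C04A11.t1, the leucine gene whose sequence opens the set above. Its signal was 610 in the pooled list, where it ranked 9th of all candidate regions, and 273 in replicate 1 and 333 in replicate 2. The pooled values are close to the sum of the replicate values, so levels are compared here only within a list. The next region, with a signal of 411 (186 in replicate 1 and 228 in replicate 2), served 2 alanine genes, F15G9.t1 and F15G9.t2, inside an intron of him-4, which encodes the extracellular matrix protein hemicentin. It ranked 24th, so the leucine gene stood well apart.

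F17H10.t1, a glycine gene in an intron of snx-17, had a signal of 406, with 208 in replicate 1 and 205 in replicate 2. F28H6.t1, an arginine gene between protein-coding genes, had 404, with 200 and 206. F57F5.t1, the isoleucine gene on chromosome V, had 398, with 180 and 220. The replicates gave nearly the same value at F17H10.t1 and F28H6.t1 and lay further apart at F57F5.t1.

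The next regions down were spread over 9 amino acid types. E03E2.t1 (serine) lies in an intron of cat-1, the vesicular monoamine transporter gene, and had 386. W03G11.t1 (lysine) had 381, and C37A2.t1 (cysteine), in an intron of the cyclin E gene cye-1, had 376. F29C4.t1 (arginine) in col-99, a collagen gene, had 372 and F41D9.t3 (asparagine) in sulp-3 had 364. C33G3.t2 (lysine) had 363 and R01H5.t1 (threonine) had 361. The pair M02F4.t1 and M02F4.t2 shared a region of 356. C02B4.t2 (tyrosine), inside the nuclear hormone receptor gene nhr-17, had 354 and C28G1.t1 (glutamate), overlapping an exon of C28G1.2, had 353. Of these 15 strongest regions, 12 lay on the X chromosome. That chromosome carries 276 of all 612 tRNA genes and 88 of the 202 genes with an IDR region.

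For the remaining amino acid types the strongest regions were weaker by stages. C06G1.t1 (histidine) had 332, F38G1.t2 (aspartate), in an intron of the fibroblast growth factor gene egl-17, had 320, and T28B4.t1 (phenylalanine) had 312. The tryptophan gene sup-5, known from mutations that turn it into an amber suppressor, had 315, with 151 in replicate 1 and 162 in replicate 2. It lies in an intron of fli-1. T15B12.t1 (methionine) had 290, R04A9.t1 (glutamine) 272, R04D3.t2 (valine) 264 and T23F1.t2 (proline) 239. The 1 gene for selenocysteine, K11H12.t1, had no IDR region. The strongest region within reach of it had a signal of 35.7 with its summit 159 bp upstream. Its nearest candidate summit lay inside the gene, 43 bp from the 5′ end.

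At the lower edge, the weakest IDR regions at tRNA genes had signals of 91.2 (K08E7.t1), 90.2 (C18A11.t2) and 89.7 (F55F3.t1), and the strongest outside the IDR list had 89.3 (R04E5.t5), 86.2 (a further region at C28G1.t1) and 85.3 (T25B6.t2). In replicate 1 these 6 regions had 48.4, 36.4, 47.5, 51.03, 34.98 and 36.8, and in replicate 2 they had 44.0, 51.9, 41.6, 36.3, 52.2 and 44.4. Their replicate values overlapped. At the limit of distance, the farthest included summits lay 195 bp (B0513.t1), 190 bp (T07H6.t2) and 190 bp (F14H8.t1) from the gene, with signals of 28.5, 48.6 and 28.1. The nearest excluded ones lay 204 bp (W02G9.t2), 206 bp (Y43D4A.t2) and 208 bp (F13G11.t1) away, with 62.7, 52.9 and 55.6. None of these 6 regions was in the IDR list, but most were further regions at genes with a closer summit. T07H6.t2, W02G9.t2 and Y43D4A.t2 had an IDR summit 14, 66 and 75 bp from the 5′ end. B0513.t1 and F14H8.t1 had a candidate summit 56 and 11 bp from it.

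Regions were found at genes for every standard amino acid, at shares that the intervals do not separate. All 20 standard types had at least 10 genes. The share with an IDR region was highest for cysteine, 6 of 13 genes (46.2%, interval 23.2 to 70.9), alanine, 15 of 34 (44.1%, interval 28.9 to 60.5), and glutamate, 18 of 41 (43.9%, interval 29.9 to 58.96). It was lowest for tyrosine, 4 of 19 (21.1%, interval 8.5 to 43.3), tryptophan, 3 of 12 (interval 8.9 to 53.2), and valine, 8 of 31 (25.8%, interval 13.7 to 43.2). The interval of every standard type included the 33.0% of all tRNA genes. Shares with any candidate region ran from 45.0% (histidine, 9 of 20) to 84.6% (cysteine, 11 of 13). The 5 genes whose amino acid is undetermined in the annotation had 0 candidate regions.

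**Figure D2:**
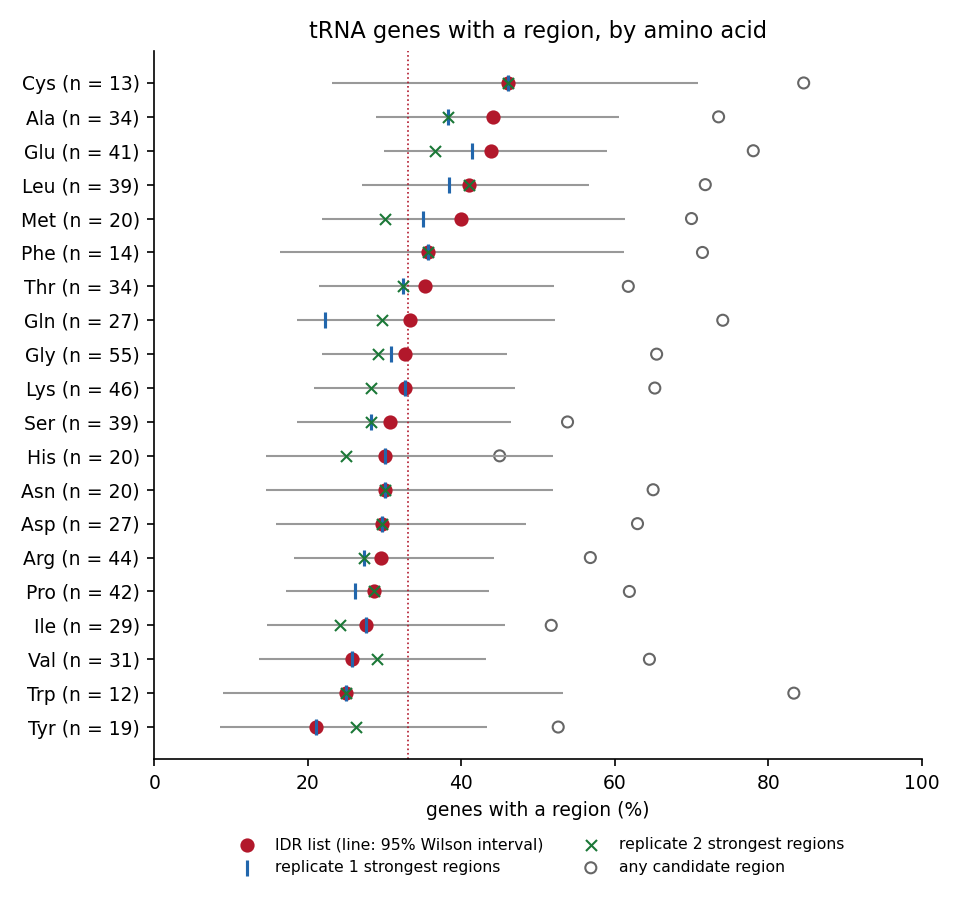
Share of tRNA genes with a region for the 20 amino acid types with at least 10 genes, ordered by the share with an IDR region. The x axis is the percentage of genes, filled circles with lines are IDR regions with 95% Wilson intervals, bars and crosses are the strongest regions of replicate 1 and replicate 2, and open circles are any candidate region. The dotted line marks the 33.0% of all tRNA genes, which every interval crosses.

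Intronic and intergenic tRNA genes had nearly the same share of IDR regions. Of 283 tRNA genes in introns, 94 had an IDR region (33.2%, interval 28.0 to 38.9), against 103 of 319 intergenic genes (32.3%, interval 27.4 to 37.6), a difference of 0.93 percentage points (interval -6.53 to 8.42). Within introns, genes on the strand opposite to the host had 32.8% (40 of 122) and those on the same strand 33.5% (54 of 161). Replicate 1 gave 30.7% for intronic and 30.7% for intergenic genes, and replicate 2 gave 30.0% and 30.4%. Only 10 genes touched an exon, and 5 of them had an IDR region. The 29 tRNA genes with an intron of their own had one in 34.5% (10 genes), against 32.9% of the 583 without.

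Shares by chromosome were spread more widely, with overlapping intervals. Genes on the X chromosome, which carries 276 of the 612, had an IDR region in 31.9% (interval 26.7 to 37.6), against 33.9% on the autosomes (interval 29.1 to 39.1). The difference was -2.04 percentage points (interval -9.42 to 5.45). Among autosomes the share was highest on chromosome III (27 of 64, 42.2%, interval 30.9 to 54.4) and lowest on chromosome V (17 of 78, 21.8%, interval 14.1 to 32.2), and replicate 1 gave 40.6% and 19.2% and replicate 2 gave 35.9% and 23.1% for the same pair. With each chromosome divided into 3 equal lengths, genes on the left had 43.5% (interval 35.3 to 52.1), those in the middle 30.9% (interval 25.1 to 37.3) and those on the right 29.5% (interval 24.4 to 35.3).

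Clustered tRNA genes, those with another tRNA gene within 1000 bp, had an IDR region less often than isolated ones. The share was 53 of 236 (22.5%, interval 17.6 to 28.2) for clustered genes and 149 of 376 (39.6%, interval 34.8 to 44.7) for isolated genes, a difference of -17.2 percentage points (interval -24.2 to -9.68). Replicate 1 gave 21.2% and 37.0%, and replicate 2 gave 20.3% and 37.0%. The shares with any candidate region were closer, 59.7% and 67.3%. On the X chromosome 27 of 135 clustered and 61 of 141 isolated genes had an IDR region, and on the autosomes 25.7% of clustered and 37.4% of isolated genes did. Counted once per run of neighbouring genes, a way of counting chosen after the data were seen, the gap was smaller. At least 1 gene had an IDR region in 35 of 100 runs (interval 26.4% to 44.7%), and 39.6% of the 376 single genes had one. A run has 2 to 6 genes and so more chances of a region than a single gene, so the units are unlike. For any candidate region the order was reversed, with 81% of runs and 67.3% of single genes. In 13 runs of 2 genes, both genes shared 1 IDR summit. The median share of 50-mers in the window around the gene that occur once in the genome was 90.6% for clustered and 92.0% for isolated genes.

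The largest runs showed how a region was limited to part of a run. The X-linked run of 6 genes F22F1.t2 to F22F1.t7 (chrX:8154445-8156707) codes for serine, aspartate, methionine and isoleucine tRNAs, and its only IDR region was at the methionine gene F22F1.t6, with a signal of 200 (99.9 in replicate 1 and 103 in replicate 2). Of the 6 histidine genes F28H6.t2 to F28H6.t7 (chrX:14135045-14137010), 1 had a candidate region, with a signal of 51.7. Between 8.51% and 88.7% of the 50-mers around those genes occur once in the genome, so part of this run could not be read with unique sequence of that length. The run K01A12.t1 to K01A12.t5 of cysteine and arginine genes had candidate regions at 2 of 5 genes and an IDR region at none. The 5 glutamine genes H08J11.t1 to H08J11.t5 had candidate regions at 4 and a shared IDR region of 128 at 2.

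Copy number and sequence uniqueness were set beside these shares. Genes with at least 1 identical copy elsewhere had an IDR region in 36.7% (172 of 469, interval 32.4 to 41.1), against 21.0% (30 of 143, interval 15.1 to 28.4) of single-copy genes, a difference of 15.7 percentage points (interval 7.18 to 23.1). Replicate 1 gave 34.1% and 20.3%, and replicate 2 gave 33.3% and 21.7%. The share did not climb steadily with copies, counting the gene itself as a copy. It was 41.5% for genes with 2 to 5 identical copies, 33.0% for 6 to 10 and 36.6% for more than 10. The median share of unique 50-mers was 91.2% around genes with identical copies and 97.9% around single-copy genes. Of the 30 genes with under 70% unique 50-mers, 1 had a candidate region and 0 had an IDR region, so for these genes a missing region cannot be told apart from reads that could not be placed.

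The replicates gave similar values at tRNA genes. A region was within reach in both replicate lists at 335 genes, in replicate 1 alone at 41, in replicate 2 alone at 50 and in neither at 186. Across the 335 genes the strongest signals had a Spearman correlation of 0.914, which describes genes and not independent samples. The median ratio of replicate 2 to replicate 1 was 1.00 (quartiles 0.84 and 1.202). Within the 200 genes with an IDR region the correlation was 0.865, and within the 135 without, which by the limit of signal span a narrower range, it was 0.364. Strong regions of both replicates marked 169 genes, those of replicate 1 alone 20 and those of replicate 2 alone 18, and all 169 had an IDR region. The IDR list is a limit of pooled signal, and pooled values are close to the sum of the replicate values. That all 169 had an IDR region is therefore nearly fixed in advance and is a description.

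**Figure D3:**
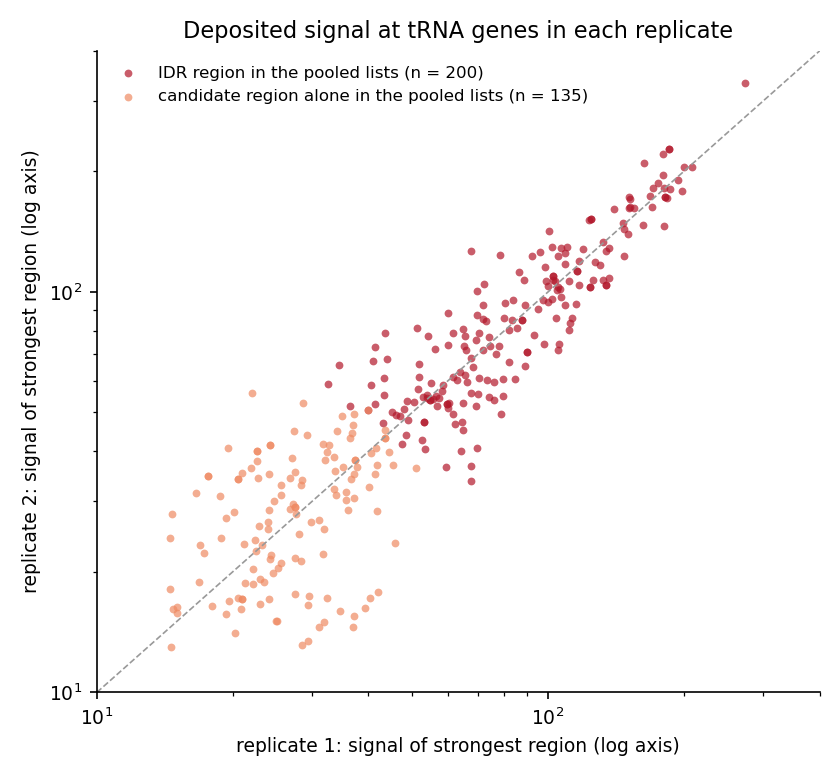
Deposited signal of the strongest region within 200 bp of each tRNA gene in replicate 1 (x axis) and replicate 2 (y axis), both on log axes. Each point is 1 of the 335 genes with a region in both replicate lists, coloured by whether the pooled region is in the IDR list (200 genes) or is a candidate alone (135 genes), and the dashed line marks equal values. The 200 IDR genes follow the line and the others scatter around it.

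The summits lay at the 5′ part of the tRNA gene. For the 202 genes with an IDR region, the nearest IDR summit lay at a median of 12 bp downstream of the annotated 5′ end (quartiles -12 and 41), and 121 of 202 summits were inside the gene (59.9%), 60 upstream of it and 21 downstream. In 149 isolated genes the median was also 12 bp, with quartiles of -7 and 38. The strongest regions of replicate 1 alone gave a median of 12 bp and those of replicate 2 alone 9 bp. Genes with a candidate region but no IDR region had a wider spread, with a median of 15 bp, quartiles of -27.25 and 69, and 38.5% of summits inside the gene. For the 5 genes printed above the summit was 35, 7, 6, 9 and 5 bp from the 5′ end.

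**Figure D4:**
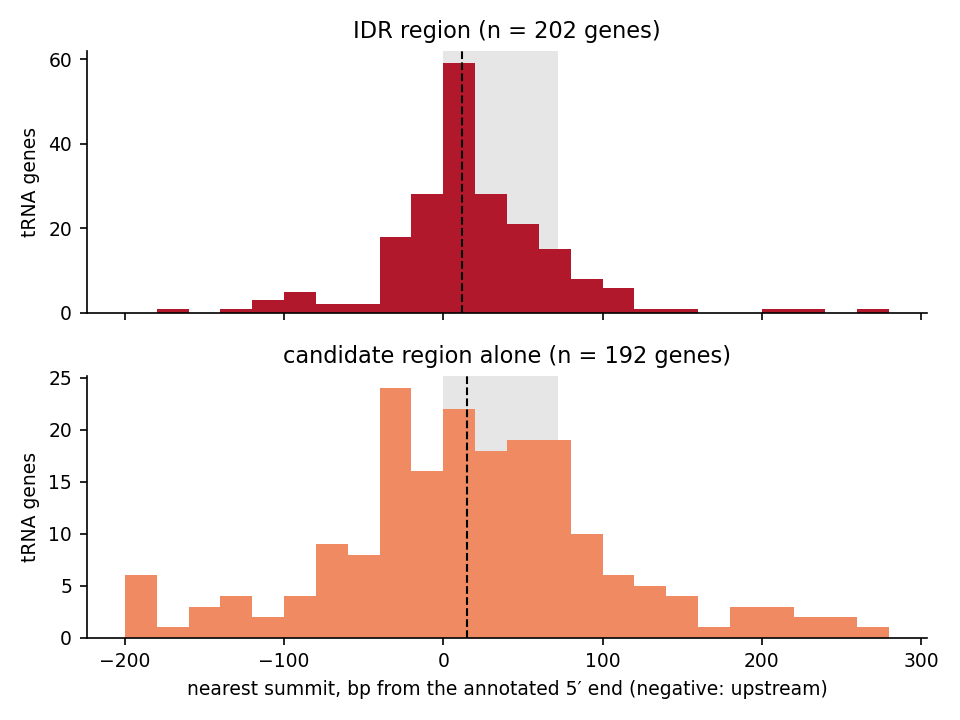
Position of the nearest summit relative to the annotated 5′ end of the tRNA gene, in bins of 20 bp, for 202 genes with an IDR region (upper) and 192 genes with a candidate region alone (lower). The y axes count genes and have different scales, grey marks the first 72 bp of the gene (its median length) and the dashed line is the median, 12 bp and 15 bp. The IDR summits gather at the 5′ end and the others are spread over the whole window.

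The internal promoter letters stood in the genes with and without a region at like shares, with overlapping intervals. B box letters GTTCGANNC stood in 73.3% of genes with an IDR region, 71.4% of genes with a candidate region alone and 72.02% of genes with none. With 1 mismatch allowed, 611 of 612 genes held them. A box letters TGGCNNAGT stood in 12.4%, 7.8% and 9.6% of the same classes, and in 78.2%, 77.1% and 75.2% with 1 mismatch. Within 50 bp of the summit on either strand, B box letters were found in 34.02% of the 194 IDR regions at tRNA genes and 27.1% of the 251 others, against 1.52% of all nuclear candidate regions. With 1 mismatch allowed they were found in 57.2% of the IDR regions (interval 50.2 to 64.0) and 43.4% of the others (interval 37.4 to 49.6), and A box letters in 65.5% (interval 58.5 to 71.8) and 38.2% (interval 32.5 to 44.4). Of all nuclear candidate regions, 15.96% held the B box letters and 19.5% the A box letters with 1 mismatch. The regions were taken for lying within 200 bp of a tRNA gene, and the letters are part of such genes. An excess over all nuclear candidate regions therefore follows from the rule and is a description. The summit lay inside a tRNA gene in 121 of the 194 IDR regions and 75 of the 251 others. IDR regions and the others were not compared at like distance of the summit from the gene. Around the summits of all 194 IDR regions, inside a gene or not, the median share of unique 50-mers was 78.3%. Around those of all 251 others it was 92.1%. The run of TTTT behind the gene was present at 98.4% of all tRNA genes.

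What did differ between the classes was the base composition just upstream of the gene, a measure chosen after the data were seen. Over the 50 bp before the 5′ end the median content of A and T was 54% in genes with an IDR region (quartiles 48 and 58), 58% in genes with a candidate region alone (quartiles 53.5 and 64) and 62% in genes with none (quartiles 56 and 68). The genes were divided into 4 groups at the quartiles of this content. Among the 155 genes in the lowest group, up to 50%, 53.5% had an IDR region (interval 45.7 to 61.2), and among the 137 in the highest group, above 64%, 8.0% did (interval 4.5 to 13.8). The groups between had 41.5% and 22.7%. Replicate 1 gave 49.7% and 8.0% for the lowest and highest groups and replicate 2 gave 53.5% and 7.3%. Isolated genes alone gave 55.1% and 5.9%, and clustered genes 48.6% and 10.1%. The difference between the lowest and highest groups was 45.5 percentage points (interval 35.8 to 53.9) over 50 bp, and it was 28.9 over 25 bp (interval 18.8 to 38.0).

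The contrast was widest on the upstream side, close to the gene. In the 25 bp from 75 to 51 bp upstream the mean content was 52.4% ± 0.8 for IDR genes, 58.1% ± 0.9 for candidate genes and 64.7% ± 0.7 for genes with none (SEM over 202, 192 and 218 genes). From 200 to 176 bp upstream it was 64.9% ± 0.9, 62.4% ± 0.9 and 64.5% ± 0.9. In the first 25 bp behind the gene it was 75.5% ± 0.6, 76.0% ± 0.7 and 76.9% ± 0.6, and from 51 to 75 bp behind it 63.9% ± 0.8, 64.1% ± 1.0 and 67.7% ± 0.8, so genes with no region were also higher there.

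**Figure D5:**
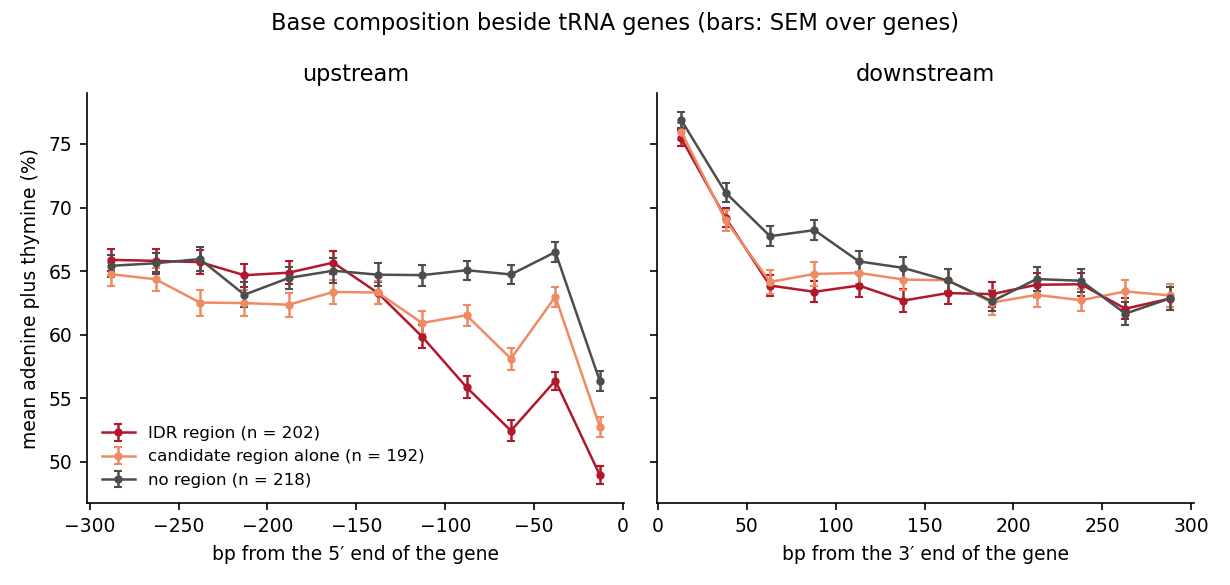
Mean content of adenine and thymine in windows of 25 bp beside tRNA genes, upstream of the 5′ end (left) and downstream of the 3′ end (right). Points are means over 202 genes with an IDR region, 192 with a candidate region alone and 218 with no region, and bars are the SEM over genes. The classes part within about 125 bp upstream, where IDR genes are lowest, and lie close together farther away and in the first windows downstream.

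Genes of identical sequence allow the flank to be read apart from the gene. All 32 families of at least 5 identical genes, 402 genes in all, held both genes with and genes without an IDR region. In 28 of the 32 the median upstream content of A and T was lower in the genes with an IDR region, in 2 it was higher and in 2 it was equal. These medians rest on 1 to 10 genes with an IDR region per family, and the count takes no account of size. The medians with and without an IDR region were 58% and 59% in the 24 proline genes. They were 38% and 60% in a family of 12 valine genes, and 44% and 47% in 7 leucine genes, of which 1 had an IDR region. The 24 identical proline genes had 6 IDR regions, 9 candidate regions alone and 9 genes with none. The 15 identical alanine genes had 9 IDR regions, and 15 identical threonine and 15 identical glutamine genes had 5 IDR regions each.

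The 100 bp before the gene are printed for 4 of these families, since within a pair the gene is identical and the flank is not. Each pair is the family's isolated gene with the strongest region, followed by an isolated gene with no candidate region. Sequences are 5′ to 3′ on the strand of the tRNA gene and end at its 5′ end, from WBcel235. Capitals mark GAGAGA or, on the other strand, TCTCTC. The proline genes are ZK899.t1 (chrX:9467801-9467900, minus strand) and ZK678.t3 (chrX:15751320-15751419, plus strand). The threonine genes are ZK563.t1 (chrX:3371494-3371593, minus strand) and R04D3.t1 (chrX:13293092-13293191, plus strand). The alanine genes are F15B9.t1 (chrV:13003581-13003680, minus strand) and C56G3.t1 (chrX:7378856-7378955, minus strand). The glutamine genes are R04A9.t1 (chrX:410291-410390, plus strand) and R09E10.t1 (chrIV:10311303-10311402, minus strand).
ZK899.t1 upstream: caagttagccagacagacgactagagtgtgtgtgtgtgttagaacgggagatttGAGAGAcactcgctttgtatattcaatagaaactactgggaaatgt
ZK678.t3 upstream: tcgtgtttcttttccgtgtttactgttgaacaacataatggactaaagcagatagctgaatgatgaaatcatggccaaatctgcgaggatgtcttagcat
ZK563.t1 upstream: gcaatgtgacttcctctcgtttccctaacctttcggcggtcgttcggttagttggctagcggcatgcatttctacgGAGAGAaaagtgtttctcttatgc
R04D3.t1 upstream: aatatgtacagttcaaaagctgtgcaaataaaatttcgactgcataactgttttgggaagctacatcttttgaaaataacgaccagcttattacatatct
F15B9.t1 upstream: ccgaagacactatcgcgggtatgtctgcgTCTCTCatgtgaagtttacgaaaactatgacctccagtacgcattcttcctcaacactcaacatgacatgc
C56G3.t1 upstream: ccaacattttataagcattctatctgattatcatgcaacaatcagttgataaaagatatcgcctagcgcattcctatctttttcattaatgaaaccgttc
R04A9.t1 upstream: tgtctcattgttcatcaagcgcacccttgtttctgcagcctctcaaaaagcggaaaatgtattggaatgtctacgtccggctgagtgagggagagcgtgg
R09E10.t1 upstream: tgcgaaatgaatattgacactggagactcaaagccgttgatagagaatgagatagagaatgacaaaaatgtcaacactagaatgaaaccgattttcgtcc
ZK899.t1 had a signal of 233 (117 in replicate 1 and 119 in replicate 2), ZK563.t1 269 (137 and 128), F15B9.t1 282 (123 and 151) and R04A9.t1 272 (147 and 123), while their partners had no region in the pooled list or in either replicate list. Over the printed 100 bp the content of A and T was 58% and 61% in the proline pair, 51% and 68% in the threonine pair, 53% and 67% in the alanine pair and 50% and 62% in the glutamine pair. Over the last 50 bp the proline pair ran the other way, with 66% at ZK899.t1 and 58% at ZK678.t3. The capitals fall upstream of 3 of the 4 genes with a region and 0 of the 4 without. This count describes the printed pairs alone, and the letters stood upstream of 36.1% of all tRNA genes with an IDR region.

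The letters GAGAGA on either strand, also chosen after the data were seen, stood within 100 bp upstream of 73 of 202 genes with an IDR region (36.1%, interval 29.8 to 42.97), 21 of 192 genes with a candidate region alone (10.9%, interval 7.27 to 16.1) and 15 of 218 genes with none (6.88%, interval 4.21 to 11.04). Windows of the same length before 19973 protein-coding gene starts held them in 8.77%, and those before tRNA pseudogenes in 2.39%. Within 100 bp downstream of the tRNA gene the shares were 3.96%, 3.65% and 2.75%. Read the other way, 67.0% of the 109 tRNA genes with the letters had an IDR region (interval 57.7 to 75.1), against 25.6% of the 503 without (interval 22.02 to 29.6). Replicate 1 gave 64.2% and 23.7%, and replicate 2 gave 64.2% and 23.3%.

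Genes with and without the letters were also compared within the groups of A and T content over the last 50 bp upstream. The difference was beyond the intervals in the middle groups and within them in the outer groups. The letters were sought over 100 bp, so composition was not matched in the farther part of that window. In the group of lowest upstream A and T content 21 of 31 genes with the letters and 62 of 124 without had an IDR region (intervals 50.1% to 81.4% and 41.3% to 58.7%). In the next group 34 of 44 and 44 of 144 did (intervals 63.01% to 87.2% and 23.6% to 38.5%), and in the one above it 16 of 24 and 14 of 108 (intervals 46.7% to 82.03% and 7.88% to 20.6%). In the highest group 2 of 10 and 9 of 127 did (intervals 5.67% to 50.98% and 3.77% to 12.9%), and there a candidate region stood at 3 of 10 genes with the letters and 47 of 127 without. Among the identical families, 58 of 76 genes with the letters had an IDR region (76.3%, interval 65.6 to 84.5), against 86 of 326 without (26.4%, interval 21.9 to 31.4). Around the summits themselves, within 50 bp, the letters stood in 13.9% of the 194 IDR regions at tRNA genes, 8.37% of the 251 others and 10.1% of all nuclear candidate regions. At no tRNA gene they stood in 17.5% of the 308 nuclear IDR regions (interval 13.7 to 22.2) and 9.99% of the other candidate regions.

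A relation to composition was also present away from tRNA genes. For 20630 nuclear candidate regions at no tRNA gene, the content of A and T within 50 bp of the summit was divided at the same limits. In the lowest group 191 of 4629 were in the IDR list (4.13%, interval 3.59 to 4.74), in the next 1.38%, in the one above it 0.442% and in the highest 10 of 5329 (0.188%, interval 0.102 to 0.345). The part that base composition plays in amplification or recovery of fragments was not tested.

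The genes whose products transcribe, process and charge tRNAs were examined from a list of 52, of which 48 matched the annotation. A promoter was the stretch reaching 1000 bp before and 200 bp past the start of a gene. No promoter of the 48 held the summit of an IDR region, against 1.34% of all 19973 protein-coding genes. Among 48 genes a count of 0 cannot be told apart from that share. A candidate summit was held by 20 (41.7%), against 27.2%. The median of the highest signal per promoter was 32.7 for the list and 35.0 for all protein-coding genes. The candidates stood at 7 of 17 genes of RNA polymerase III transcription, among them rpc-1, which encodes the largest polymerase subunit, with a signal of 47.4, and rpac-19, a subunit shared with polymerase I, with 55.4. They stood at 9 of 20 aminoacyl-tRNA synthetase genes, among them dars-1, the aspartyl-tRNA synthetase gene, with 65.0, and at 4 of 11 tRNA processing genes, among them tsen-34, a splicing endonuclease subunit gene, with 38.3. The genes named from this list were chosen for their values.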

How the data were processed

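ChIP-seq peak lists of 2 biological replicates were analysed. The authors deposited, in the ce11 build, 1 list per replicate, a list from both replicates pooled and an IDR list. Per the deposited readme files each replicate list was derived from that replicate's alignment and a control file. The lists give for each region the authors' signal, a −log10 q value and the summit as an offset from the start. Alignment and peak calling software is not given in the sources used here, and the depth of each replicate is unknown. The ce10 lists were not used.

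tRNA genes were those of biotype tRNA in Ensembl release 115 of WBcel235. RefSeq's annotation of WBcel235 gave names, amino acids and tRNA pseudogenes, but no anticodons. Coordinates are 1-based. A gene had a region when a summit lay within 200 bp. The strong regions of a replicate were its 519 regions of highest signal, as many as the IDR list holds. A replicate region matched a pooled one within 100 bp. Unique 50-mers were counted in the window of 200 bp around each gene, and that length is arbitrary because the read length is unknown. No test was run: shares have 95% Wilson intervals, and differences combine the intervals of both shares. The steps were tested on simulated data.

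The members and lists were chosen with earlier results of these data known. The genes named were those nearest the 15 strongest regions, at the strongest region of each amino acid type, at the limits of the IDR list and of distance, and in the 4 largest runs, since runs of equal size were kept together. Software was scipy 1.17.1, matplotlib 3.10.9, pandas 2.3.3 and numpy 2.4.6 under Python 3.11.15.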

Additional observations from a re-analysis of the deposited data

How the results depend on the processing

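With a summit limit of 50 bp the share of regions in the IDR list was 55.6% and the share of tRNA genes with a candidate region 54.1%; with 500 bp that share of genes was 73.0%. Taking as strong the 346 strongest pooled regions gave 34.6% of regions and 26.5% of genes. Counting each region for its nearest gene alone gave 60.3% of genes with a candidate region. Without the X chromosome the span between amino acid types widened to 38.0 percentage points, against 25.1 in all genes. Fewer genes then remained per type, and the reason for the wider span was not tested. With 1 mismatch the B box difference was 33.1 percentage points, but only 1 gene then lacked the letters. The difference between the lowest and highest of the 4 groups of upstream A and T content was 28.9 percentage points over 25 bp and 57.7 over 100 bp, with these windows chosen after the data were seen. The differences by clustering, copies and GAGAGA kept their sign under every alternative run for them, and 103 of the 113 main values recomputed stayed within the main interval or within 1.5 times the main count. Leaving out 1 replicate gave 427 and 446 regions. No tRNA gene was a RefSeq pseudogene, so that alternative changed nothing. No paired analysis was possible because both samples form 1 group. Depth is unknown, so a missing region may be a weak one.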
